A study of Mus musculus with 4 samples.

Results

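RNA was compared between the 2 blastocyst libraries from embryos given a metabolite, α-ketoglutarate (α-KG) or 2-hydroxyglutarate (2-HG), and the 2 control libraries that the study paired with them. Both sides together make up all 4 libraries of the series. The comparison covers 10420 of 53715 genes, those with at least 5 TPM (an abundance corrected for transcript length and scaled to the same total in each library) in at least 1 of the 4 libraries. For each gene, the mean of log2(TPM + 1) over both controls was subtracted from the mean over both metabolite libraries, so positive differences mean higher with the metabolites. A gene was counted as lying apart when both metabolite values were above both control values, or both below. It passed the shared 2-fold rule when it lay apart and the difference of the means was at least 1 on the log2 scale.

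The study asked how α-KG and 2-HG affect mouse embryos between fertilisation and the blastocyst. C57BL/6 zygotes taken from the oviduct were cultured in KSOM, a medium for early embryos, and exposed at the pronuclear stage to α-KG at 0.15 mM or 2-HG at 0.3 mM. The groups are therefore α-KG, 2-HG, the negative control of α-KG and the negative control of 2-HG, each as 1 library of blastocyst RNA. The labels give neither the number of embryos in a library, nor the enantiomer of 2-HG, nor what the controls received. The libraries of a side differ in compound, dose or pair, so they are not replicates of 1 condition, and every value below describes these libraries. The doses differ as well, so the compounds are set side by side and not compared with each other.

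α-KG is an intermediate of the tricarboxylic acid cycle and the co-substrate of a large enzyme family, the 2-oxoglutarate dioxygenases. This family includes the TET enzymes that oxidise methylated cytosine in DNA, the JmjC histone demethylases, the prolyl hydroxylases that mark hypoxia-inducible factors for degradation, and the ALKBH enzymes that act on nucleic acids. 2-HG has a hydroxyl group where α-KG has a keto group, and it is known as a competitive inhibitor of many of these enzymes. In the embryo, removal and re-establishment of DNA and histone methylation take place over the stages up to the blastocyst, in which the trophectoderm surrounds the epiblast and the primitive endoderm.

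The sequences that carry the results are those just before the starts of 4 genes with large, opposite differences, and 3 small nucleolar RNAs (snoRNAs), which guide chemical modification of other RNAs. Among the 24 genes named for the largest separations, 19 had an entry in the RefSeq table of promoters (GRCm38.p6). Zfp281 and Sh3bp5 were higher with both metabolites, and Casp2 and Rell1 were lower. Their 250 bases before the start are given 5′ to 3′ on the strand of the gene, with each CG in capitals, the dinucleotide that DNA methylation and TET enzymes act on. They lie at chr1:136624651-136624900 on the plus strand for Zfp281, at chr14:31436101-31436350 on the minus strand for Sh3bp5, at chr6:42264735-42264984 on the plus strand for Casp2 and at chr5:63968898-63969147 on the minus strand for Rell1.
Zfp281: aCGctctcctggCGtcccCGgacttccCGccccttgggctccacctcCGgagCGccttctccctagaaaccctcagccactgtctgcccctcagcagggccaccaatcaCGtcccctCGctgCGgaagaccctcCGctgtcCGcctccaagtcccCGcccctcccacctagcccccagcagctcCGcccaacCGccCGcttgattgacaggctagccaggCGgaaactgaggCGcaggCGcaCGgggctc
Sh3bp5: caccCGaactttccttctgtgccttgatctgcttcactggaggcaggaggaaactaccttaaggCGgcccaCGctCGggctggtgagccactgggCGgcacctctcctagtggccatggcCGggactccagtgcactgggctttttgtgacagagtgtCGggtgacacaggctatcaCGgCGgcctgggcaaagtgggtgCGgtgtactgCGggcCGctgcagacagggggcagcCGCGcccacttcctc
Casp2: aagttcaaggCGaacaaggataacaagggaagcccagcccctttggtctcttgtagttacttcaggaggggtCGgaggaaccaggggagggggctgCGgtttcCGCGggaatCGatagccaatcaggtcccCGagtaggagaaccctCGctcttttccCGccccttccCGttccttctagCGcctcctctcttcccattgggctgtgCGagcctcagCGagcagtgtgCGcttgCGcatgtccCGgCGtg
Rell1: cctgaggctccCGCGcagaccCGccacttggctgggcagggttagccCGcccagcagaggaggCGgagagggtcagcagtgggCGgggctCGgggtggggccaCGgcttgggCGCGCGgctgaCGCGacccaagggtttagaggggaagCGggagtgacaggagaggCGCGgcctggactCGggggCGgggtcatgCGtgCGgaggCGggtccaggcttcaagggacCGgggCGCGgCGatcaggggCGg

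These stretches hold 19 CG in Zfp281, 14 in Sh3bp5, 17 in Casp2 and 26 in Rell1. Across the 32851 promoters of the table, the median over the same length was 6 CG, with quartiles of 2 and 16, and 92.1% held at least 1. The table covers genes whether or not they were measured here. Among the 10420 measured genes, 6926 had an entry (66.5%). Over their longer windows, from 250 bases before the start to 50 after it, the median was 22 CG, with quartiles of 15 and 29. The stretches above were not compared with these at equal length. The letters ACGTG, the core of the element bound by hypoxia-inducible factors, were searched on both strands. They were found in the stretch of Zfp281, in 16.6% of all promoters of that length, and in 27.1% of the longer windows of measured genes. Methylation was not measured, and a match describes letters only.

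Of the snoRNAs, Snord100 and Snord16a were lower and Snord92 was higher with both metabolites. Each transcript sequence is from the GENCODE M21 annotation of GRCm38, with the first TGATG and the last CTGA in capitals, the letters of the 2 boxes that define C/D snoRNAs. They lie at chr10:23785750-23785823 on the minus strand for Snord100, at chr9:64175423-64175521 on the plus strand for Snord16a and at chr17:71631281-71631365 on the plus strand for Snord92.
Snord100: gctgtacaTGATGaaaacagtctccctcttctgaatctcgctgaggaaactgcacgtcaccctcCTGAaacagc
Snord16a: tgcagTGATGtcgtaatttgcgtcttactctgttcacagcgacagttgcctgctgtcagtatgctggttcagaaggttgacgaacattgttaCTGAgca
Snord92: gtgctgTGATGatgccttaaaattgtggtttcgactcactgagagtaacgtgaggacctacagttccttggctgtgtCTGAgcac

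Searched on the transcript strand only, TGATG followed by CTGA was present in 37 of the 79 snoRNAs that reached the 5 TPM minimum (46.8%), and in 445 of the 1483 snoRNAs of the annotation (30.0%).

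Across the 4 libraries, 9342 genes reached 5 TPM with α-KG and 9062 with 2-HG, against 9196 in the α-KG control and 9417 in the 2-HG control. The sequencing depth is unknown, because only TPM were used. Transcripts of the mitochondrial chromosome took 7.96% of TPM with α-KG and 8.83% with 2-HG, against 8.45% and 7.04% in their controls. Among markers of other cells, 1 of 22 cumulus and granulosa genes, 1 of 12 oviduct genes and 1 of 13 blood genes reached 5 TPM, and 8, 2 and 5 of them in the same order were listed at 0 in all libraries. The summed cumulus and granulosa markers were at 50.4 TPM with α-KG and 42.9 TPM with 2-HG, against 51.7 and 36.4 TPM in the controls. Most of this sum was Nr5a2, at 48.0 and 37.2 TPM with the metabolites, against 49.6 and 32.8 TPM, so it describes mainly 1 gene. The oviduct markers were at 3.69 and 9.17 TPM, against 5.48 and 8.39 TPM. The summed blood markers were at 1.48 TPM with α-KG and 3.96 TPM with 2-HG, against 2.71 and 11.6 TPM in the controls, and all 3 sums overlapped between the sides. Summed Y-linked transcripts were at 140 TPM with α-KG and 225 TPM with 2-HG, against 251 and 205 TPM in the controls. Xist, the RNA that silences an X chromosome in female cells, was at 62.6 TPM with α-KG and 11.2 TPM with 2-HG, against 1.04 TPM in the control of α-KG and 29.7 TPM in that of 2-HG, so the sides overlapped. The part of embryo sex in the results below was not tested.

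Few genes passed a test across both sides. limma, fitted to log2(TPM + 1) of all 10420 genes with the libraries of a side as its spread and Benjamini-Hochberg adjustment, called 1 gene higher (0.0096%) and 2 lower (0.0192%) at an adjusted p under 0.05, together 0.0288%. At an unadjusted limma p under 0.05 there were 287 genes (2.75%), a share below the 0.05 that this threshold would pass with no difference anywhere. For a single gene, an exact permutation test of 2 libraries against 2 cannot go below 0.333. The gene that rose was Sh3bp5, and the genes that fell were Trappc8 and the clone gene RP23-391M18.7. These calls treat α-KG and 2-HG as draws from 1 group, and 2 of the 3 were lost when each treated library was set against its own control: the adjusted p with this pairing in limma was 0.056 for Sh3bp5, 0.248 for Trappc8 and 0.0221 for RP23-391M18.7. With any 1 of the 4 libraries left out, limma gave adjusted p between 0.0609 and 0.205 for Sh3bp5 and between 0.208 and 0.291 for Trappc8. For RP23-391M18.7 it gave 0.0801 without the α-KG control and 0.0623 without the 2-HG control. In these fits the lone library of a side is assumed to vary like the others. For these and all further genes, fewer cells that express a gene and less RNA per cell cannot be told apart in bulk RNA.

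Sh3bp5 (ENSMUSG00000021892.14, chr14:31359880-31436078) encodes a mitochondrial outer membrane protein that binds the kinase JNK. It was at 39.5 TPM with α-KG and 41.2 TPM with 2-HG, against 2.00 TPM in the control of α-KG and 2.19 TPM in that of 2-HG. Both metabolite libraries were far above both controls, and the libraries of a side were nearly equal. The difference was 3.74 ± 0.33 (SE) on the log2(TPM + 1) scale (limma, adjusted p = 0.00489). An exon of Sh3bp5 overlaps Capn7 on the other strand, and Capn7 lay between 9.97 and 10.6 TPM in all 4 libraries. With the TPM of both genes summed, the difference was 1.96 and was no longer called (limma, adjusted p = 0.106).

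Trappc8, a subunit of the TRAPPIII complex that tethers vesicles and acts in autophagy, was at 6.20 TPM with α-KG and 6.71 TPM with 2-HG, against 37.4 and 37.3 TPM in the controls. The sides were again far apart and each was tight. The difference was -2.36 ± 0.28 (SE; limma, adjusted p = 0.0467), just past the threshold, and it passed in none of the alternative settings other than median-of-ratios scaling. Of 40 measured members of the TRAPP, COPI and COPII transport list, Trappc8 included, 5 lay above and 6 below both controls, shares near those of all genes (11.5% above and 16.0% below). Trappc12 was at 10.2 and 23.0 TPM with α-KG and 2-HG, against 26.4 and 29.3 TPM in the controls. Trappc2l was higher, at 141 and 154 TPM against 115 and 125 TPM.

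RP23-391M18.7 is annotated as protein-coding at chr2:168180986-168230364 on the minus strand. It was listed at 0 with both metabolites, against 59.5 TPM in the control of α-KG and 61.9 TPM in that of 2-HG (difference -5.95 ± 0.40 on the log2(TPM + 1) scale, SE; limma, adjusted p = 0.000917). Its exons run over those of 2 named genes on the same strand, sharing a run of 4187 bases with Adnp and 206 bases with Dpm1. Adnp, which encodes a chromatin protein that acts with the remodeller CHD4, was at 3.34 TPM with α-KG and 41.3 TPM with 2-HG, and it was listed at 0 in the α-KG control and at 0.193 TPM in the 2-HG control. Dpm1, the catalytic subunit of dolichol-phosphate mannose synthase, was at 140 and 194 TPM with the metabolites, against 74.3 and 85.7 TPM in the controls. So 1 gene of the locus was lower and both others were higher with the metabolites. Summed over the 3 genes, the locus was at 144 TPM with α-KG and 235 TPM with 2-HG, against 134 and 148 TPM in the controls, and the difference was 0.39 in place of -5.95. Dpm1 made up most of this sum in every library, so the sum mainly follows Dpm1. RP23-391M18.7 was at 0 with both metabolites, and Adnp, which shares the longer run, reached 3.34 and 41.3 TPM there. Both values were below the 59.5 and 61.9 TPM of RP23-391M18.7 in the controls, while Dpm1 was higher with both metabolites. The part of read assignment between the 3 genes was not tested.

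**Figure D1:**
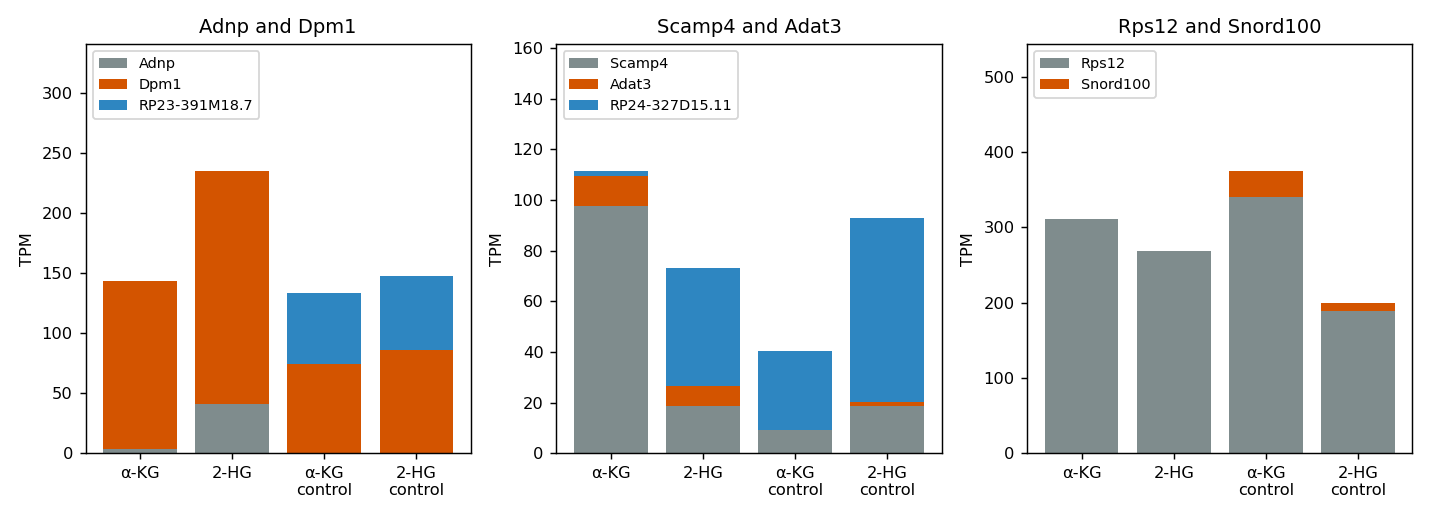
Stacked TPM of genes with shared exons in each library, for the loci of Adnp and Dpm1, of Scamp4 and Adat3, and of Rps12 and Snord100, with 1 bar per library and no error bars. RP23-391M18.7 is present only in the bars of the controls, at 59.5 and 61.9 TPM, while the whole bars reach 144 and 235 TPM with the metabolites and 134 and 148 TPM in the controls.

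Both metabolite values lay above both controls in 1195 genes (11.5%) and below both in 1666 genes (16.0%), together 27.5%. With nothing different between the sides, a share of 0.333 of the orderings of 4 libraries would still lie apart. Lying apart therefore does not by itself mark a change. The size rule alone, a difference of at least 1, was met by 169 genes (1.62%) in the higher and 223 genes (2.14%) in the lower direction, together 3.76%. Both conditions together gave 108 higher genes (1.04%) and 158 lower genes (1.52%), or 2.55% of all. The median difference over all 10420 genes was -0.04. The pair differences of these 266 genes have fixed signs, since the sides were chosen not to overlap, so they are described by size only. Among the higher genes, 39 were at least 2-fold above the own control in both pairs, with medians of 1.64 for α-KG and 1.23 for 2-HG on the log2 scale. Among the lower genes, 55 were at least 2-fold below in both pairs, with medians of -1.24 and -1.47. A difference of the means of at least 4-fold was reached by 14 higher and 19 lower genes. At the edge of the rule, Stfa1 passed with a difference of 1.01, and Gm22392 did not with 0.9997. In the lower direction, RP23-316L10.3 passed with -1.0003, and RP23-354H24.6 did not with -0.9995.

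**Figure D2:**
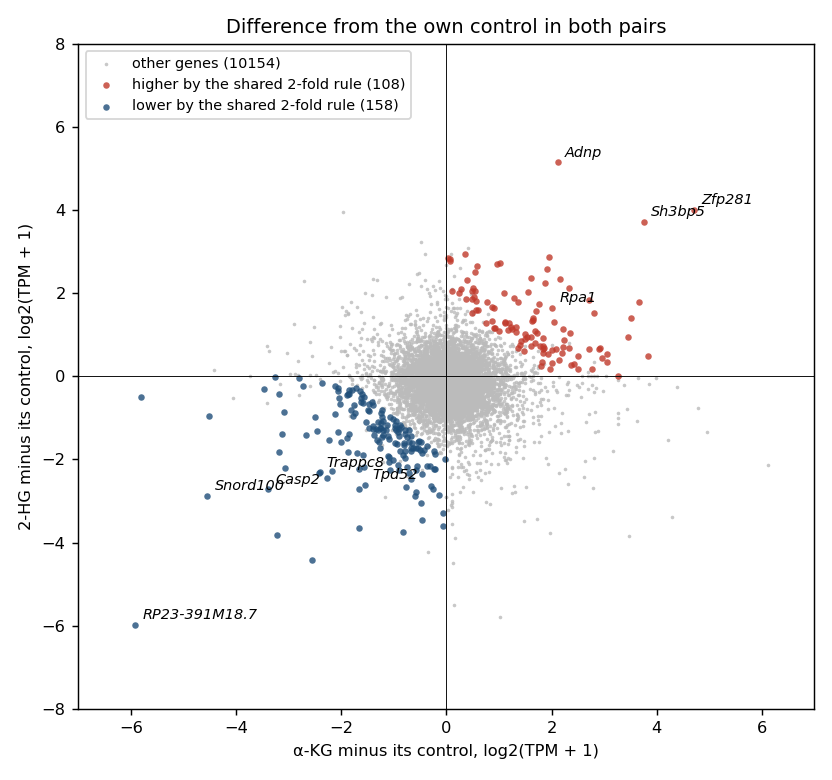
Difference between each treated library and its own control on the log2(TPM + 1) scale, α-KG on the horizontal and 2-HG on the vertical axis, 1 point per gene. The 108 higher genes lie in the upper right and the 158 lower genes in the lower left by choice, and most of the 10420 genes lie near the centre.

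The 266 genes were of lower abundance than the rest. The median of the highest TPM per gene was 11.1 among higher and 11.2 among lower genes, against 27.2 among all genes. Under 10 TPM in every library were 49 of the higher and 75 of the lower genes, and 2110 of all 10420. Exons shared with another gene on the same strand were present in 21 of the 108 higher genes (19.4%), 24 of the 158 lower genes (15.2%) and 884 of all genes (8.48%). Of the 45 that lay in such a locus, 19 still passed the shared 2-fold rule when TPM were summed over the locus. Protein-coding genes numbered 76 of the higher and 106 of the lower genes, and 2.02% of all protein-coding genes passed the rule in either direction. On the X chromosome lay 7 higher genes (6.48%), 3 lower genes (1.90%) and 373 of all genes (3.58%).

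The 12 higher genes with the widest gap between sides were led by a transcription factor. Zfp281 (ENSMUSG00000041483.14, chr1:136624901-136630053), a zinc finger factor of pluripotent cells, was at 27.0 TPM with α-KG and 16.2 TPM with 2-HG, against 0.0737 and 0.0722 TPM in the controls. It was close to absent from both control libraries, and its exons overlap no other gene. The difference of 4.36 ± 0.58 (SE) did not pass the test (limma, adjusted p = 0.0815). Arl8a, a small GTPase that moves lysosomes, was at 10.1 and 8.15 TPM with the metabolites, against 1.21 and 1.10 TPM in the controls. Rpa1, the large subunit of the complex that coats single-stranded DNA, was at 34.1 and 31.0 TPM, against 7.72 and 9.16 TPM (difference 1.83).

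Psmd10, an assembly chaperone of the proteasome also known as gankyrin, was at 14.8 TPM with α-KG and 33.3 TPM with 2-HG, against 3.11 and 3.66 TPM in the controls. Of 34 proteasome genes, 4 lay above both controls, against 11.5% of all genes, 3 lay below, against 16.0%, and Psmd10 was the 1 that passed the shared 2-fold rule. Rnf181, a RING ubiquitin ligase, was at 26.7 and 27.2 TPM, against 7.19 and 7.49 TPM in the controls. Btbd6, a BTB-domain protein, was at 14.0 and 5.99 TPM, against 1.30 and 0.968 TPM.

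Larp4b, an mRNA-binding protein of the La-related family, was the most abundant of the 12, at 114 TPM with α-KG and 90.6 TPM with 2-HG, against 33.6 and 43.1 TPM in the controls. Ctdsp2, a small phosphatase, was at 13.4 and 21.6 TPM, against 4.59 and 5.49 TPM. Cnppd1 was at 18.4 and 18.0 TPM, against 4.31 and 2.98 TPM. In these 3 genes every metabolite value was more than 2-fold above every control value, and none passed the test.

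Adat3, a subunit of the deaminase that makes inosine at the wobble position of tRNA, belongs to a locus with shared exons. It was at 11.7 TPM with α-KG and 7.65 TPM with 2-HG, and it was listed at 0 in the α-KG control and at 1.52 TPM in the 2-HG control. Its neighbour Scamp4 was at 97.7 and 18.9 TPM, against 9.27 and 18.9 TPM in the controls, and RP24-327D15.11 was at 2.03 and 46.6 TPM, against 31.2 and 72.7 TPM. Summed over the 3 genes the sides overlapped, at 111 and 73.1 TPM with the metabolites and 40.5 and 93.1 TPM in the controls.

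**Figure D3:**
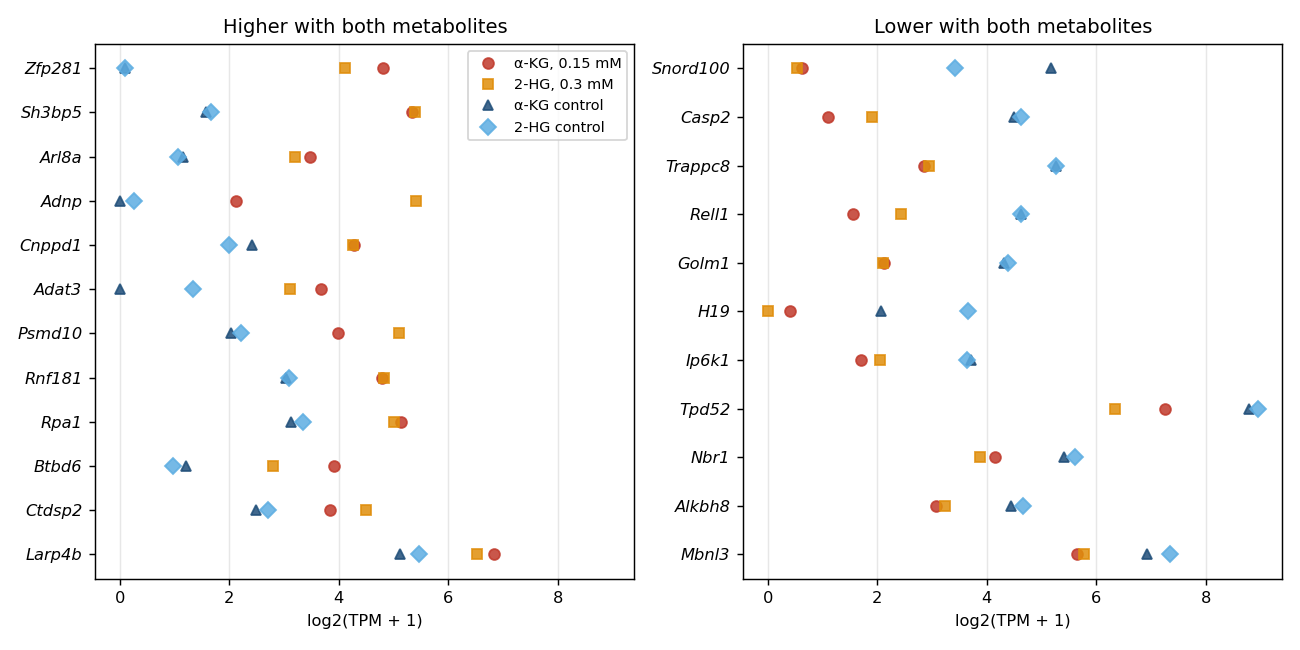
Log2(TPM + 1) of the 12 higher genes (left) and 11 of the 12 lower genes (right) with the widest gap between the sides, 1 symbol per library, sorted with the widest gap at the top. In each line both metabolite symbols lie on 1 side of both control symbols, and no symbol has an error bar because each group is 1 library.

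The 12 lower genes with the widest gap included an initiator of cell death and genes of the secretory and autophagy pathways. Casp2 (ENSMUSG00000029863.13), which encodes caspase-2, was at 1.15 TPM with α-KG and 2.75 TPM with 2-HG, against 21.6 and 23.7 TPM in the controls. The difference of -3.06 ± 0.43 (SE) did not pass the test (limma, adjusted p = 0.0889). Of the 29 measured p53 targets and apoptosis genes, 3 lay above and 6 below both controls, against 11.5% and 16.0% of all genes, with a median of -0.05, against -0.04 over all genes. Besides Casp2, Gadd45b was lower by the shared 2-fold rule, at 3.84 and 2.11 TPM, against 9.79 and 6.67 TPM. Trp53inp1 was higher, at 31.2 and 36.4 TPM, against 21.6 and 17.5 TPM.

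Rell1, a relative of the TNF receptor RELT, was at 1.94 TPM with α-KG and 4.38 TPM with 2-HG, against 23.8 TPM in each control. Tpd52, a protein of vesicle traffic, was the most abundant of the lower genes, at 151 and 80.5 TPM, against 441 and 494 TPM in the controls (difference -2.07 ± 0.29, SE; limma, adjusted p = 0.0889). Nbr1, an autophagy receptor for ubiquitinated cargo, was at 16.7 and 13.8 TPM, against 41.6 and 48.1 TPM. All 3 were at least 2-fold below the own control in both pairs. Golm1, a protein of the Golgi membrane, was at 3.38 and 3.31 TPM, against 18.9 and 20.0 TPM. It shares a run of 1297 exonic bases with Naa35 on the other strand, and the sum of both genes gave a difference of -0.56 in place of -2.23. Naa35 was at 53.8 TPM with α-KG and 35.5 TPM with 2-HG, against 53.3 and 48.1 TPM in the controls. It made up most of the sum in every library, so the sum mainly follows Naa35.

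Ip6k1, an inositol hexakisphosphate kinase, was at 2.28 TPM with α-KG and 3.16 TPM with 2-HG, against 12.1 and 11.4 TPM in the controls. Mbnl3, a splicing regulator on the X chromosome, was at 49.3 and 53.8 TPM, against 121 and 162 TPM. Neither passed the test. H19, the maternally expressed imprinted RNA, was at 0.325 TPM with α-KG and listed at 0 with 2-HG, against 3.19 and 11.6 TPM in the controls. Of 18 measured imprinted genes, H19 included, 3 lay above and 2 below both controls, together near the 27.5% of all genes. Cdkn1c was at 8.73 and 9.01 TPM, against 5.39 and 6.04 TPM, and Airn was at 10.8 and 8.17 TPM, against 4.82 and 5.78 TPM.

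Small nucleolar RNAs made up 6 of the 108 higher and 13 of the 158 lower genes. Of 79 measured, 9 lay above and 18 below both controls, and 24.1% passed the shared 2-fold rule, against 2.55% of all genes and 6.90% of lincRNAs. These shares were not tested against each other. Their median of the highest TPM was 10.3, close to the minimum. Snord100 was at 0.536 TPM with α-KG and 0.455 TPM with 2-HG, against 34.9 and 9.66 TPM in the controls. Its 74 bases lie within the exons annotated for Rps12, a ribosomal protein gene at 310 and 269 TPM with the metabolites and 340 and 189 TPM in the controls. The difference for Snord100 was -3.71, and for the sum over its locus 0.05. Snord16a, which lies within Rpl4, was at 0.016 and 9.59 TPM, against 22.3 and 19.6 TPM, and the sum over that locus had a difference of 0.09. Its own difference was -2.74. Rpl4 was at 2735 and 2818 TPM with the metabolites, against 2517 and 2625 TPM in the controls. Both sums mostly follow the host gene, so they cannot show whether the snoRNA itself differed. Snord92 went the other way, at 6.00 and 4.89 TPM, against 1.24 and 1.32 TPM. The part of read assignment between snoRNAs and their hosts was not tested.

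Of 27 measured enzymes and transporters that make or use α-KG and 2-HG, 1 lay above and 5 below both controls, against 11.5% above and 16.0% below among all genes. The median of this list was -0.10, against -0.04 over all genes. Dlst, the succinyltransferase of the complex that oxidises α-KG, was at 60.7 TPM with α-KG and 26.4 TPM with 2-HG, against 10.9 and 21.8 TPM in the controls. Its difference was 1.32, but the 2-HG library was only 0.27 above its control on the log2 scale. Ogdh, which encodes the catalytic subunit of that complex, overlapped between sides at 120 and 88.0 TPM, against 90.4 and 109 TPM. Idh1 was at 212 and 187 TPM, against 154 and 201 TPM, and Idh2 was at 140 and 206 TPM, against 126 and 212 TPM. D2hgdh, a dehydrogenase that removes 2-HG, also overlapped, at 9.56 and 5.95 TPM, against 7.37 and 7.40 TPM.

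**Figure D4:**
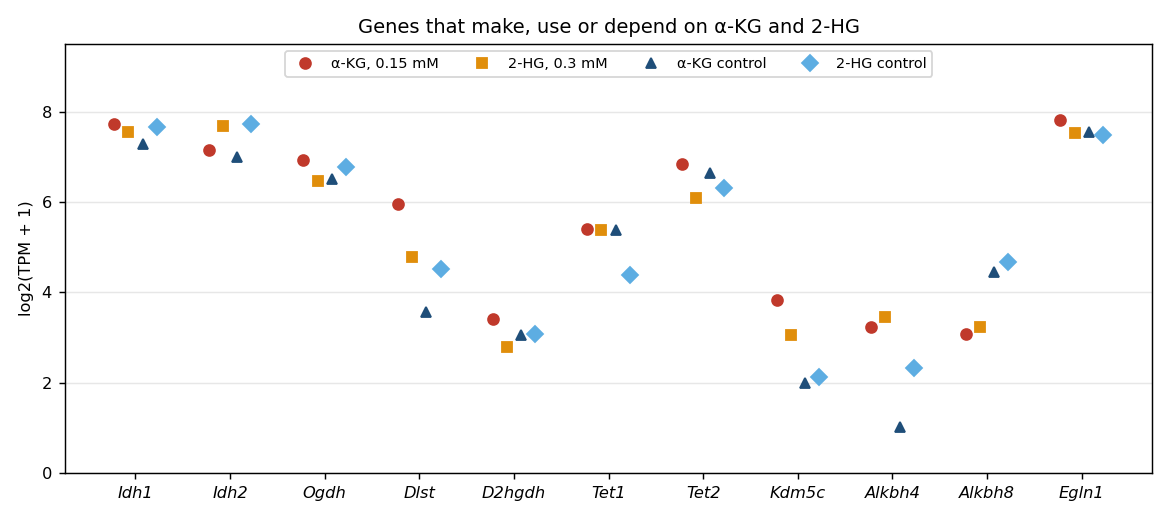
Log2(TPM + 1) of 11 genes that make, use or depend on α-KG and 2-HG, 1 symbol per library and no error bars. Both metabolite libraries lie above both controls by 0.92 for Kdm5c, 0.897 for Alkbh4 and 0.27 for Dlst on this scale, and below both by 1.20 for Alkbh8, while Idh1, Idh2, Ogdh, D2hgdh, Tet2 and Egln1 overlap.

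Among enzymes that depend on α-KG, members lay on both sides, and the counts of these lists stand against 11.5% above and 16.0% below among all genes. Tet1 was at 41.1 and 40.9 TPM with α-KG and 2-HG, against 40.7 and 19.8 TPM, which set the sides apart by less than 0.01 on the log2 scale. Tet2 overlapped, at 114 and 66.8 TPM, against 98.9 and 78.2 TPM, and Tet3 was under the minimum. Of 13 DNA methyltransferases and maintenance factors, none lay above and 1 below both controls. The 17 measured JmjC demethylases had 2 above and 4 below. Kdm5c, an X-linked demethylase of H3K4, was at 13.2 and 7.28 TPM, against 2.97 and 3.38 TPM (difference 1.38). Its Y-linked homologue Kdm5d was lower, at 0.995 and 2.22 TPM, against 5.49 and 2.69 TPM. The Y-linked and Xist values given above varied between the libraries as well, and their part in this pair was not tested.

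The other dioxygenases numbered 25, with 6 above and 4 below both controls, against 11.5% and 16.0% of all genes. Alkbh4, a demethylase of the ALKBH family, was at 8.35 and 10.01 TPM, against 1.02 and 4.02 TPM in the controls (difference 1.67). Alkbh8, which modifies wobble uridine in tRNA, was at 7.41 and 8.46 TPM, against 20.8 and 24.3 TPM (difference -1.40). Neither passed the test (limma, adjusted p = 1.00 and 0.560). Alkbh6 was also lower, at 31.8 and 33.6 TPM, against 40.7 and 48.8 TPM. Histone methyltransferases had 7 of 28 members above and 4 below, and Smyd5 alone passed the shared 2-fold rule, at 27.7 and 43.0 TPM, against 18.95 and 10.6 TPM. Of 13 hypoxia targets, 2 lay above and 3 below, against the same 11.5% and 16.0%. Bnip3, a mitophagy receptor, was at 207 and 195 TPM, against 317 and 344 TPM, and its relative Bnip3l was at 64.1 and 49.2 TPM, against 88.8 and 96.5 TPM. The differences were -0.72 for Bnip3 and -0.71 for Bnip3l, under the size rule.

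Lineage markers of the blastocyst are counted against 11.5% above and 16.0% below among all genes. Of 29 trophectoderm genes, 3 lay above and 3 below both controls, of 23 epiblast and pluripotency genes 1 and 4, and of 11 primitive endoderm genes none. Cdx2 was at 16.2 and 13.5 TPM with the metabolites, against 15.7 and 17.3 TPM, and Gata3 was at 256 and 180 TPM, against 228 and 230 TPM. Nanog was at 75.2 and 44.2 TPM, against 66.3 and 62.8 TPM, Sox2 was at 9.18 and 1.92 TPM, against 8.91 and 2.38 TPM, and Gata6 was at 208 and 161 TPM, against 212 and 190 TPM. All 5 overlapped between sides. Pou5f1 lay below both controls by 0.09 on the log2 scale, at 28.1 and 40.6 TPM, against 47.3 and 43.3 TPM. For Sox2, the libraries within each side lay further apart than the means of the sides.

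Mitochondrial genes are likewise counted against 11.5% above and 16.0% below among all genes, and their medians against -0.04 over all genes. Nuclear subunits of the respiratory chain had 12 of 61 measured genes above and 4 below both controls, with a median of 0.03. Cycs, cytochrome c, was at 209 and 220 TPM, against 174 and 190 TPM, and Ndufs1, a complex I subunit, was at 108 and 86.0 TPM, against 173 and 150 TPM. Mitochondrially encoded mRNAs had 4 of 13 above and none below, with mt-Nd6 at 5607 and 6141 TPM, against 5024 and 4679 TPM. Genes of mitochondrial translation had 5 of 49 above and 14 below, with a median of -0.07, and assembly factors of the respiratory chain had 4 of 45 above and 11 below, with a median of -0.09. Mrps28, a subunit of the small mitochondrial ribosome, was at 35.1 and 36.0 TPM, against 51.2 and 45.5 TPM. Ndufaf7, a complex I assembly factor, was at 31.8 and 32.8 TPM, against 45.1 and 52.9 TPM. No gene of these 4 groups passed the test, and 1 passed the shared 2-fold rule, Atp5a1 at 34.8 and 34.7 TPM, against 128 and 44.1 TPM. Atp5a1 shares a run of 129 exonic bases with Haus1 on the other strand, and the sums of both genes overlapped, at 50.4 and 164 TPM, against 135 and 186 TPM. Haus1 itself was at 15.6 and 129 TPM, against 7.07 and 142 TPM. The sums of Ndufs1 and of mt-Nd6 with the genes that share their exons on either strand overlapped as well. Ndufs1 shares runs of 320 bases with Ino80dos (at most 2.65 TPM) and 9 with Eef1b2. Eef1b2 was at 497 and 338 TPM, against 501 and 375 TPM. For mt-Nd6 the run is 14 bases with mt-Nd5, at 5178 and 6653 TPM, against 6255 and 4865 TPM. These sums take in whole neighbours, so they do not show Ndufs1 or mt-Nd6 alone.

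For genes of growth and signalling, the shares over all genes are again 11.5% above and 16.0% below. The cell cycle list had 1 of 32 genes above and 6 below both controls, with a median of -0.11. Kif11, a mitotic kinesin, was at 4.38 and 3.49 TPM, against 7.58 and 14.7 TPM, and Ccnb1, which encodes cyclin B1, was at 220 and 326 TPM, against 354 and 406 TPM. Serine, one-carbon and nucleotide synthesis had 3 of 27 above and 5 below. Hippo and YAP genes had 4 of 22 above and 4 below, with Amotl2 at 7.62 and 5.89 TPM, against 11.9 and 31.9 TPM. Chromatin remodelling and NuRD genes had 1 of 28 above and 5 below, among them Chd7 at 13.2 and 9.24 TPM, against 18.7 and 25.6 TPM. Ribosomal proteins had 3 of 78 above and 4 below, and none of 21 cholesterol synthesis genes lay apart. No list was tested as a group, and the lists share genes.

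**Figure D5:**
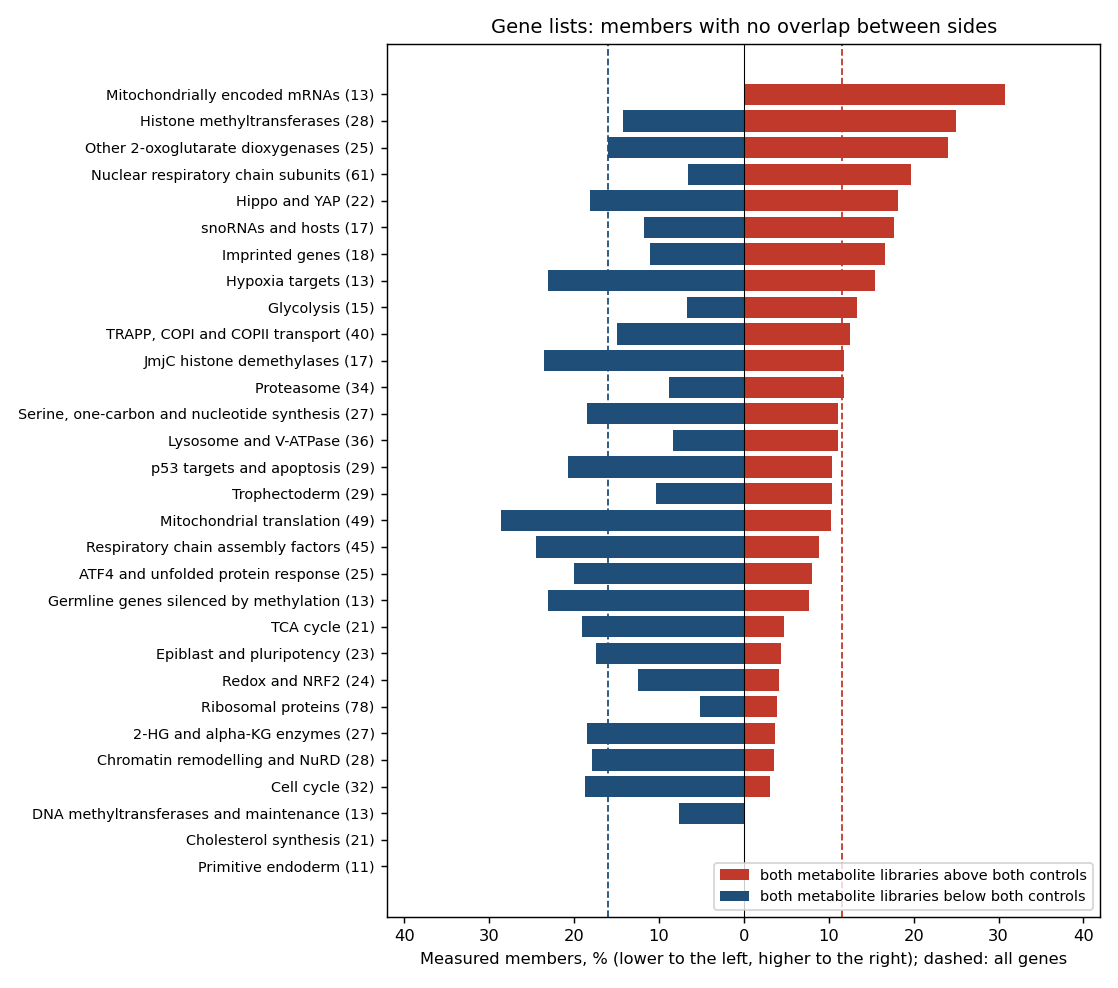
Share of the measured members of each gene list (number in brackets) with both metabolite libraries above both controls (red, to the right) or below both (blue, to the left), in percent, for lists with at least 10 measured members. Dashed lines mark the shares over all 10420 genes, 11.5% above and 16.0% below, and the lists lie on both sides of them.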

How the data were processed

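RNA abundance per gene was taken from the 4 deposited columns of TPM, which the authors computed. The tools named, per the submitters' processing notes, are HISAT2, StringTie, Trimmomatic, DESeq2 and Picard, and the builds mm10 and GRCm38.p6; versions, roles and order are not given in the sources used here. Another 10 columns of the deposited tables were not used. No read counts were used, so depth, counting intervals and detection limits are unknown. Libraries were made from pre-amplified cDNA of detergent-treated embryos, per the labels' protocols, and strandedness is not stated there. Reads of genes that overlap on opposite strands may therefore not be separable.

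Gene identifiers were matched to GENCODE M21 (GRCm38), 53620 of 53715 by ID, and 27 names stored as dates were restored. Genes were kept where 1 library or more reached 5 TPM. The difference of means of log2(TPM + 1) was tested in R 4.3.3 with limma 3.58.1 (lmFit, eBayes with trend; 2 residual and 7.21 prior degrees of freedom) and Benjamini-Hochberg adjustment over 10420 genes. The pseudocount of 1 understates changes of low genes. The libraries of a side are 1 per condition, so p-values measure only the spread between these libraries. No gene list was tested. The procedure was tested on simulated data.

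Members, lists (38) and the naming rule were chosen with earlier results of these data known. Named were the 12 genes per direction with the widest gap between sides, at least 10 TPM in 1 library and a difference of at least 1, leaving out predicted genes, clones and pseudogenes, then up to 3 members per list with the widest gap, 16 genes of metabolism and lineage, and the genes past the test. Of these, 2 genes are not reported here. Genes that overlap them were named beside them, and Snord92 and Trappc2l, outside this rule, were chosen after their values were seen. Alternatives changed the pseudocount, the minimum, the scaling, the pairing, the trend and the libraries. Summing TPM over genes with overlapping exons was added after the data were seen. Sequences are from RefSeq (GRCm38.p6) for 250 bases before each start and from GENCODE M21 for snoRNAs.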

Additional observations from a re-analysis of the deposited data

Results flagged for a closer look

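For 10 of the named genes, the α-KG library and the 2-HG library lay on opposite sides of their own controls. This difference between the pairs was not tested, each pair holds 1 library per group, and the doses differ. Xist differed from its control by 4.97 with α-KG and by -1.33 with 2-HG on the log2(TPM + 1) scale, a distance of 6.30 between the pairs. The other 9 were closer: the α-KG difference minus the 2-HG difference was 0.72 for Ogdh, 0.68 for Nanog, 0.61 for D2hgdh, 0.56 for Idh1, 0.52 for Gata3, 0.43 for Tet2, 0.38 for Cdx2, 0.25 for Sox2 and 0.19 for Idh2. In all 10 the α-KG library was above its control and the 2-HG library below its own. Genes that lie apart have the same sign in both pairs, so only genes whose sides overlapped could enter here. Medians of whole lists that hold these genes partly had the same signs. With α-KG and 2-HG they were 0.14 and -0.26 for trophectoderm genes, and 0.05 and -0.25 for α-KG and 2-HG enzymes and transporters. Epiblast and pluripotency genes had -0.01 and -0.005. The share of all measured genes with this pattern is not given, so it cannot be called particular to these 10.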

How the results depend on the processing

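The calls of limma depended most on the settings. With no replicate block, 1 gene was higher and 2 were lower, and with the replicate block, which pairs each treated library with its own control, there were 0 and 1. The labels name a control for each compound but do not say what a pair shares. With no minimum on TPM there were 0 and 0 calls among 30008 genes, and the higher and lower counts were 341 and 418 for the size rule, 3082 and 3650 for no overlap, and 250 and 335 for the shared 2-fold rule. With at least 10 TPM in 1 library, 1 lower gene was called, the size rule gave 99 and 124, and the shared rule 59 and 83. With at least 1 TPM in all 4 libraries, 0 lower genes were called, the size rule gave 83 and 133, and the shared rule 66 higher genes. With a pseudocount of 5, 1 lower gene was called, the size rule gave 43 and 58, and the shared rule 33 and 39. Lower calls numbered 1 with a pseudocount of 0.1 and 1 when rescaled over nuclear protein-coding genes, and limma without the trend called 0 higher and 1 lower. Leaving out 1 library at a time gave 0 higher and 0 to 3 lower calls, 229 to 330 higher and 300 to 467 lower genes by the size rule, 2521 to 3439 and 3078 to 4222 by no overlap, and 207 to 306 and 278 to 447 by the shared rule. By construction, fewer values to separate let more genes pass. Median-of-ratios scaling gave 1473 higher and 1433 lower genes with no overlap, against 1195 and 1666, and 246 of the 266 genes of the shared rule were kept. Summing TPM over genes with overlapping exons, chosen after seeing the data, left 0 lower calls on the same strand, and 0 higher and 0 lower on either strand. It turned the sign of RP23-391M18.7 to 0.39, of Snord100 to 0.0493, of Snord16a to 0.0886 and, on either strand only, of Arg2 to 0.0594. In each of these sums, another gene of the locus makes up most of the TPM, so the sign follows mainly that gene. Because the depth is unknown, no counting error can be given for genes near 5 TPM.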
